A study of Mus musculus with 8 samples.

Results

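The collagen genes of mouse were followed through 8 RNA sequencing libraries of sorted touch neurons. Members were taken by name alone, as every gene of the deposited exon count file whose Ensembl symbol reads Col, a number, a and a number. The rule found 44 of 55573 genes. The neurons were C-LTMRs (C low-threshold mechanoreceptors), slow-conducting afferents that serve light touch and whose cell bodies lie in dorsal root ganglia. GFP-positive cells were collected by FACS from adult mice of 2 genotypes, wild type (WT) and bhlha9-deficient (KO). Bhlha9 encodes a transcription factor of the basic helix-loop-helix class. The sexes were kept apart, which made 4 groups of 2 libraries (male WT, male KO, female WT, female KO), and no treatment is named. Both arms carried the GFP used for sorting. The construct behind it, the strain and the number of mice pooled per library are not given in the sources used here. The submitters describe the libraries of a group as biological replicates, so n = 2 for every group mean. Libraries are called male_WT1, male_WT2 and so on, after sex, genotype and replicate number.

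Collagens are secreted proteins whose chains wind around each other into a rope-like helix, often from chains of different genes. Fibrillar collagens build the fibres of connective tissue, type IV collagens the sheets of basement membrane, and beaded filament, FACIT and other collagens link or decorate these. In a peripheral ganglion, fibroblasts of the capsule, vessel walls, and Schwann and satellite glial cells are known sources of collagen RNA. Neurons also make some collagens, mainly of the transmembrane type.

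Libraries held between 50919885 and 71956309 counts. A level of 3 counts, taken as the floor of detection, equalled 0.0421 to 0.0587 CPM (the count relative to the TMM-scaled library total). Intervals and floors cover counting error only, since the cDNA was amplified without molecular identifiers. Bhlha9 stood at 127 to 161 CPM in the WT libraries and at 0.156 to 0.47 CPM in the KO libraries, which matched the genotype labels. All 12 C-LTMR markers were at 1 CPM or more in every library, led by Th at 2970 to 5360 CPM. These were bulk samples, so fewer cells of a type and less RNA per cell cannot be told apart.

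No collagen was steady across the 8 libraries. A gene was called steady when it had at least 1 CPM in each library and its highest library was at most 3 times its lowest. It was called single-library when its highest library had at least 1 CPM and at least 4 times the level of the second. Of the 44 collagens, 0 were steady, 6 were single-library, 27 were patchy (at least 1 CPM somewhere, but neither steady nor single-library), 10 stayed below 1 CPM in all libraries, and 1 had 0 counts. Among all 19508 genes that reached 1 CPM in a library, 50.4% were steady and 5.87% were single-library.

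Genes of low level were seldom steady, and collagens were low throughout. No collagen had a mean of 20 CPM, the range in which 92.0% of genes were steady. Among genes with a mean of 5 to 20 CPM, 2122 of 4246 were steady, against 0 of the 7 collagens there. Among genes with a mean of 1 to 5 CPM, 17.3% were steady, against 0 of 13 collagens. Below a mean of 1 CPM no gene of the file could be steady by this rule, and 981 of 3504 were single-library, against 5 of 13 collagens. The genes and libraries were shared between these counts and the counts were not tested. Closest to steady was Col5a1, which alone reached 1 CPM in all 8 libraries but spread 14.1-fold, from 2.02 to 28.5 CPM.

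**Figure D1:**
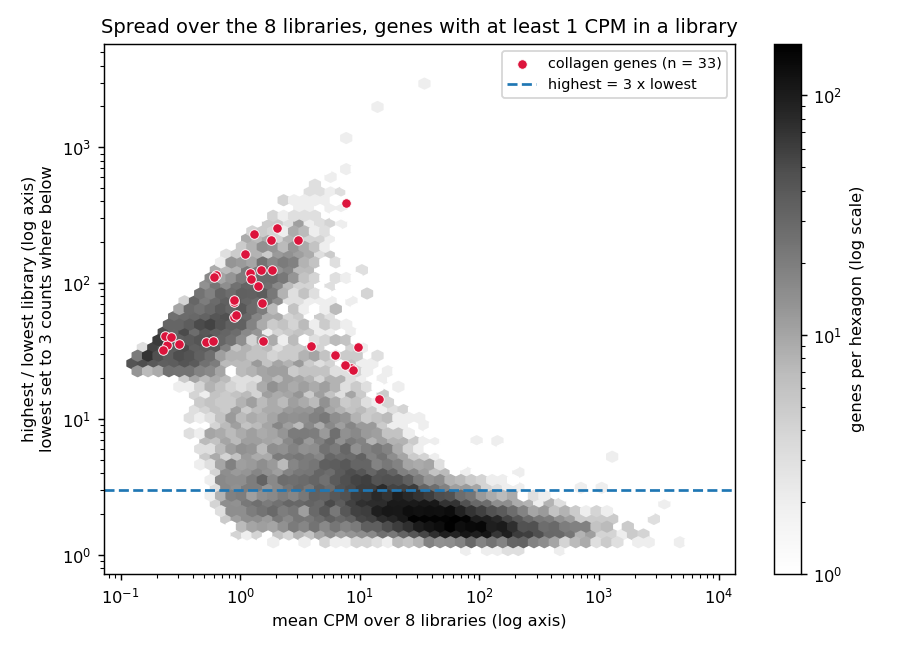
Each red point is 1 of the 33 collagens with at least 1 CPM in a library, and grey hexagons count all 19508 such genes. The horizontal axis is the mean CPM over 8 libraries and the vertical axis the highest over the lowest library, with the lowest set to 3 counts where it was below; both axes are logarithmic. All 33 collagens lie above the dashed line at 3 times.

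Among fibrillar collagens, chains of types I, III and V gave most of the counts. Per kilobase of annotated exon, Col5a1, a chain of the type V collagen that regulates fibre width, had the highest mean of all collagens (1.71 CPM per kb). This rank rests on exon lengths, which were 1.01 times the longest coding transcript for Col5a1, 1.79 times for Col6a2 and 2.32 times for Col1a2. It would not hold on the longest coding transcripts, where Col6a2 and Col1a2 would stand above Col5a1. Col5a1 stood at 10.1 and 22.1 CPM in male WT, 19.7 and 4.84 in male KO, 6.44 and 28.5 in female WT, and 22.2 and 2.02 in female KO. In the 3 groups other than male WT, the replicates thus differed at least 4-fold. Col5a3, another type V chain, had 12.0 and 4.57 CPM in male WT, 21.9 and 6.55 in male KO, 4.78 and 7.25 in female WT, and 0.881 and 2.33 in female KO. It was highest in male_KO1, and both female KO libraries lay below both female WT libraries.

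Col1a2, a chain of type I collagen, the main collagen of skin, bone and tendon, had 12.3 and 0.833 CPM in male WT, 18.8 and 12.5 in male KO, 3.70 and 20 in female WT, and 0.587 and 8.36 in female KO. It was thus below 1 CPM in male_WT2 and female_KO1 and at least 3.70 CPM elsewhere. Its annotated exons sum to 12426 bp, 2.32 times its longest coding transcript of 5348 bp, and 6 transcripts with retained introns are annotated, so its level per kb (0.776) is lower than on the coding transcript. Col1a1, the partner chain, was a single-library gene, with 9.77 CPM in male_KO1, 0.55 in male_WT2, 0.127 in male_WT1, 0.0633 in female_WT2 and 0 counts in the other 4 libraries. Col3a1, the chain of type III collagen of stretchable tissue, had 10.7 and 3.08 CPM in male KO, 1.43 and 0 in male WT, 0.0706 and 0.0792 in female WT, and 0.841 and 0 in female KO. Its 3 highest libraries were all male.

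The other fibrillar collagens stayed below 5 CPM. Col24a1 was a single-library gene of female_WT2, with 4.65 CPM there and at most 0.157 CPM in the other 7 libraries. Col11a1 was highest in female_WT2 at 3.06 CPM, Col11a2 in the same library at 3.15, Col5a2 there at 1.73, Col27a1 in female_KO1 at 3.99 and Col2a1, the cartilage collagen, in male_WT1 at 1.59. Each of these 5 had at least 4 libraries below 1 CPM.

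In the basement membrane network, Col4a1 and Col4a2 carried nearly all counts. These chains join into the helix found in almost every basement membrane. Col4a1 had 10.1 and 0.691 CPM in male WT, 7.10 and 13.4 in male KO, 16 and 8.01 in female WT, and 1.02 and 13.6 in female KO. Col4a2 had 11.2 and 0.126 CPM in male WT, 22.8 and 2.96 in male KO, 3.28 and 15.5 in female WT, and 0 and 5.35 in female KO. Both were lowest in male_WT2 and female_KO1. Col4a3 and Col4a4, chains of the specialised membranes of kidney and inner ear, peaked at 1.35 CPM in male_KO1 and 1.47 CPM in male_WT1. Col4a5 and Col4a6 stayed at or below 0.285 CPM.

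Of the type VI chains, which form beaded filaments around cells, Col6a2 was seen in all libraries. It had 3.76 and 15.4 CPM in male WT, 13.6 and 0.647 in male KO, 5.98 and 10.9 in female WT, and 8.57 and 8.66 in female KO. Col6a1 had 2.82 CPM in male_WT1, 4.99 in male_KO1, 1.85 in female_WT2 and 0 counts in the other 5 libraries. Col6a3, the third chain of the classic assembly, was a single-library gene, with 1.73 CPM in male_KO2, 0.139 in male_KO1 and 0 counts elsewhere. Col6a4 peaked at 2.79 CPM in female_WT2 and Col6a5 at 1.68 CPM in male_KO1, and Col6a6 had at most 0.0783 CPM.

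FACIT collagens, which sit on the surface of fibres, were led by Col16a1. It had 2.77 and 2.18 CPM in male WT, 16.7 and 8.28 in male KO, 0.565 and 12.9 in female WT, and 5.66 and 0.983 in female KO. Both male KO libraries lay above both male WT libraries, while the female groups overlapped. Col12a1 had 0.0634 and 0.0629 CPM in male WT, 6.88 and 1.77 in male KO, and 0 counts in all 4 female libraries. Col19a1 was a single-library gene of male_KO1, at 4.87 CPM there and at most 0.157 CPM in the other 7. Col9a2 peaked at 3.31 CPM in female_KO1, Col14a1 at 4.55 in female_WT1, Col20a1 at 2.60 in female_KO1 and Col9a3 at 1.49 in male_KO1. Col22a1 had at most 0.0308 CPM, and Col9a1 was the collagen with 0 counts in all 8 libraries.

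Col8a1, a short chain collagen of vessel walls, had 0.0476 and 0.0314 CPM in male WT, 3.57 and 1.99 in male KO, 0.176 and 5.86 in female WT, and 0.0391 and 0.183 in female KO. It was thus above 1 CPM in both male KO libraries and in female_WT2. The other short chain members, Col8a2 and Col10a1, had at most 0.0471 CPM. Of the multiplexins, proteins of basement membranes, Col18a1 peaked at 5.11 CPM in female_WT2 and Col15a1 at 0.396 CPM in the same library.

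Transmembrane collagens were patchy or low as well. Col23a1 had 0 and 2.18 CPM in male WT, 9.84 and 1.13 in male KO, 2.47 and 3.32 in female WT, and 0.90 and 4.62 in female KO. Col25a1 had 8.78 CPM in male_KO1, 3.83 in female_WT2 and 1.09 in female_WT1, and it was below 1 CPM in the other 5 libraries. Col13a1 and Col17a1 stayed at or below 0.90 CPM. Col28a1, a collagen known from Schwann cells of peripheral nerve, had 1.41 and 1.49 CPM in male WT, 2.56 and 6.27 in male KO, 8.06 and 6.11 in female WT, and 0.235 and 5.2 in female KO. Col7a1, the anchoring fibril collagen of skin, had 3.08 and 1.13 CPM in male WT, 3.10 and 0.123 in male KO, 5.24 and 2.17 in female WT, and 0 counts in both female KO libraries. Col26a1 had at most 0.771 CPM.

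**Figure D2:**
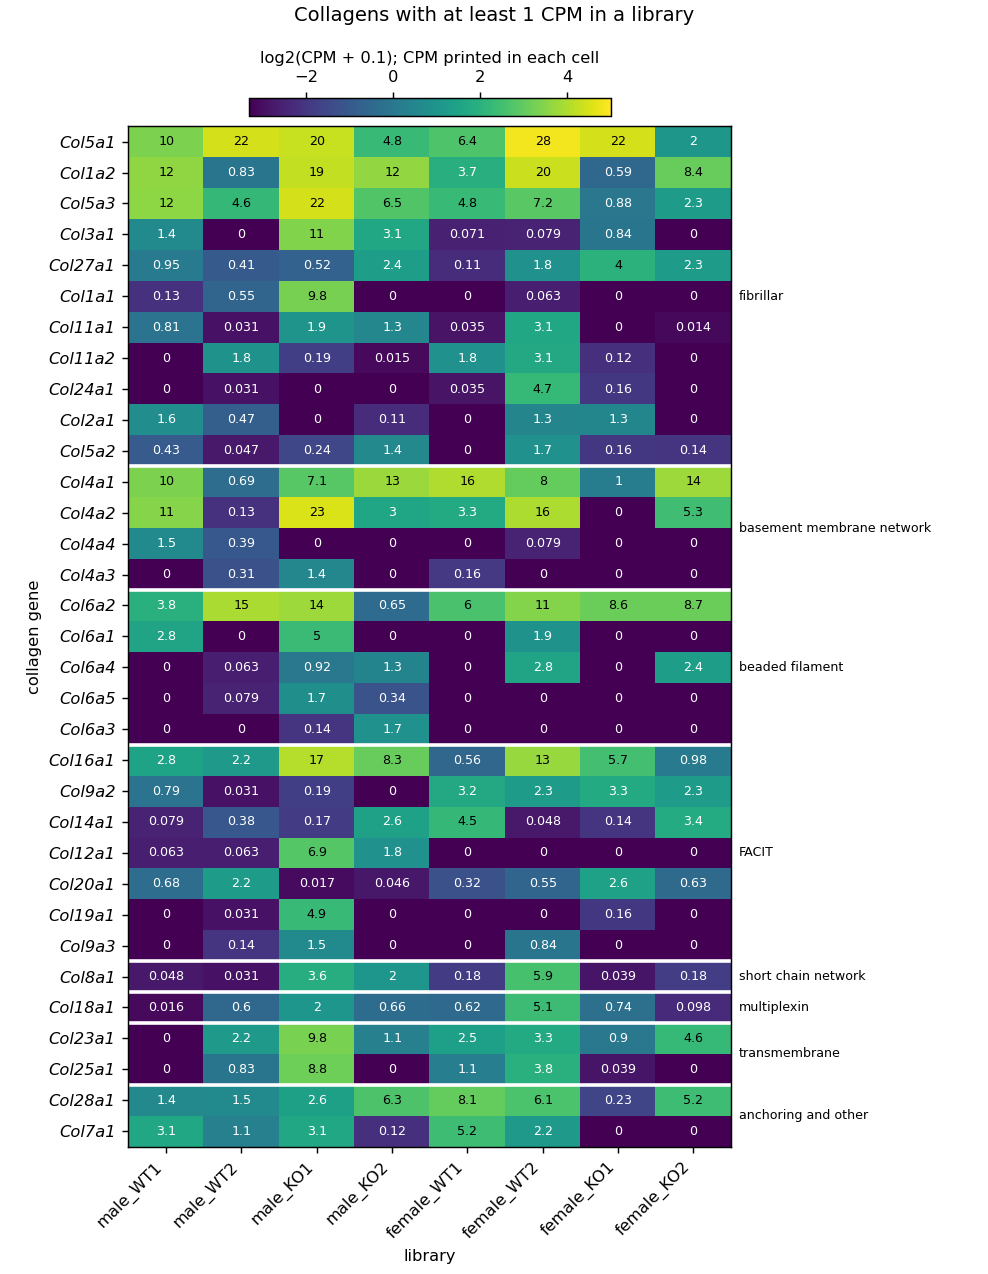
Columns are the 8 libraries and rows the 33 collagens with at least 1 CPM in a library, grouped by family. Colour shows log2(CPM + 0.1) and the CPM is printed in each cell. male_KO1 holds the highest value of 13 rows and female_WT2 of 9.

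The limits of the single-library group were close to some of its neighbours. Col4a3 (highest 4.30 times the second) and Col6a5 (4.95 times) lay just inside, and Col12a1 (3.88 times) and Col4a4 (3.75 times) just outside. Col1a1 (17.8 times), Col24a1 (29.7 times) and Col19a1 (31.1 times) lay far from the limit.

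Chains that share a helix did not rise and fall in a fixed ratio. Per kilobase of exon, Col1a2 was 1.02 times Col1a1 in male_KO1 and 0.80 times in male_WT2, but 51.2 times in male_WT1 and 167 times in female_WT2, the latter against a Col1a1 level of 0.00965 CPM per kb. Annotated exons were 2.32 times the longest coding transcript for Col1a2 and 1.11 times for Col1a1, so Col1a2 would stand higher on coding transcripts. In male_KO2, female_WT1, female_KO1 and female_KO2, Col1a1 had 0 counts while Col1a2 had 0.587 to 12.5 CPM. For type IV, the ratio of Col4a1 to Col4a2 per kb ran from 0.276 in male_KO1 to 4.88 in male_WT2, and Col4a2 had 0 counts in female_KO1. Col5a1 exceeded Col5a2 per kb by 3.86 times in male_KO2 and by 529 times in male_WT2, and Col5a2 had 0 counts in female_WT1.

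Col4a1 (minus strand) and Col4a2 (plus strand) lie head to head on chromosome 8 and their annotated first exons share 22 bases at chr8:11312805-11312826. The sequence, from RefSeq on GRCm38.p6, is shown because counting took no account of strand and reads over it fall to both genes; capitals are not used, as no motif is marked. It makes up 0.295% of the Col4a1 exons and 0.332% of the Col4a2 exons.
Col4a1 and Col4a2 shared bases: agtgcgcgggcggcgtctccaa
Other genes overlapped collagen exons by at most 6.07% of their length, the highest share being that of Col9a3 with Tcfl5.

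**Figure D3:**
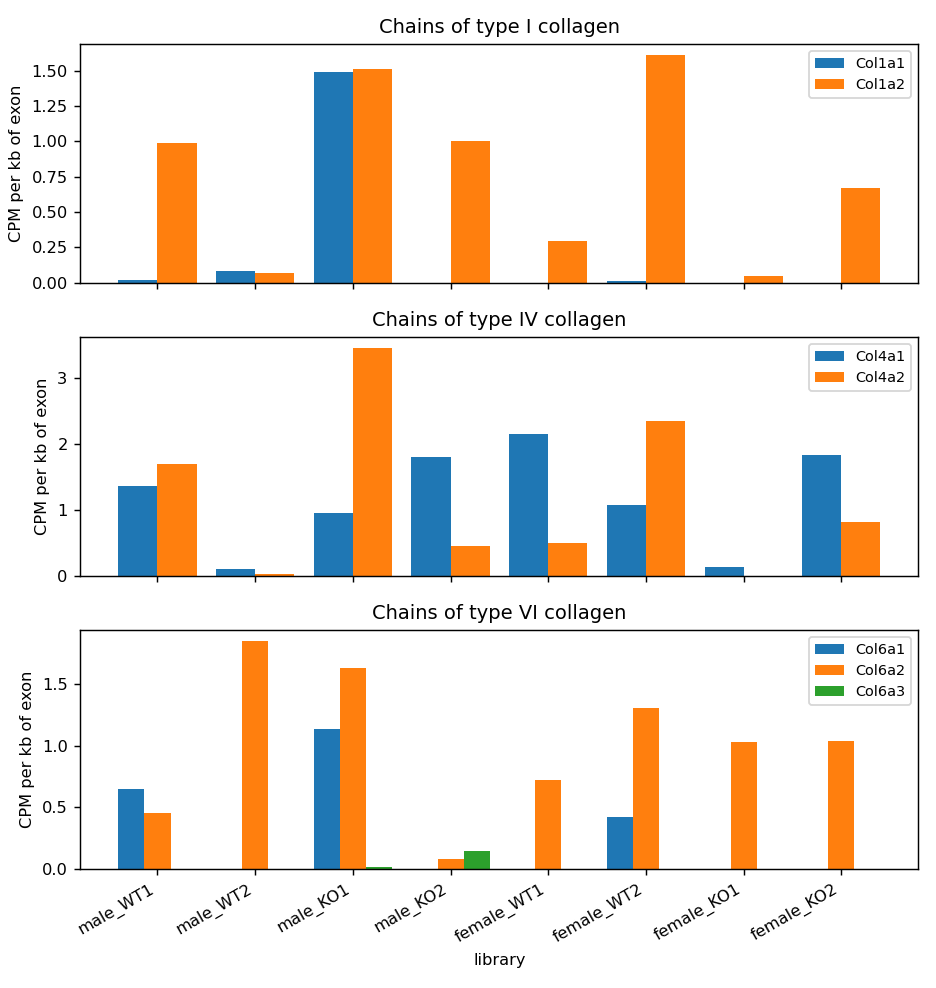
Bars give CPM per kilobase of annotated exon in each of the 8 libraries for chains of type I, IV and VI collagen. Col1a1 and Col1a2 are of like height in male_KO1 (1.49 and 1.51), and Col6a1 is at 0 in 5 libraries in which Col6a2 is present.

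Collagen RNA was concentrated in 2 libraries of different groups. Summed over the 44 genes, collagens reached 197 CPM in male_KO1 and 156 CPM in female_WT2, and 54.9 to 78.3 CPM in the other 6 libraries. Those 2 libraries each had 22 collagens at 1 CPM or more, against 8 to 17 in the others. The highest library of a collagen was male_KO1 for 13 of the 33 genes that reached 1 CPM, female_WT2 for 9, and another library for 11. Collagens were 0.0201% of the counts in male_KO1 and 0.0055% in female_KO1, the lowest.

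Loss of a collagen from 1 replicate was common. In male WT, 6 of 26 collagens with at least 20 counts in a replicate had 0 counts in the other, against 6.81% of all such genes. The counts were 6 of 29 in male KO (all genes 8.95%), 6 of 28 in female WT (9.31%) and 5 of 18 in female KO (8.63%). These shares take in genes of every level and were not matched to the low level of collagens. They therefore cannot tell whether collagens were lost more often than other genes of like level. Col6a1 was lost in this way in male WT, male KO and female WT, Col3a1 in male WT and female KO, and Col4a2 in female KO.

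Markers of connective tissue cells were low and uneven in the same libraries. Of 12 fibroblast markers, 3 to 7 had 0 counts in each library, and their summed level was 9.58 and 12.9 CPM in male WT, 44.8 and 16 in male KO, 39.4 and 30.8 in female WT, and 12.0 and 8.22 in female KO. Dcn, a proteoglycan that binds collagen fibres and a defining fibroblast marker, had 27.0 CPM in male_KO1 and 25 in female_WT1, 0.817 to 4.10 in male_WT2, male_KO2 and female_WT2, and 0 counts in male_WT1, female_KO1 and female_KO2. Pdgfra, the receptor that marks fibroblasts, was present in all 8 libraries, from 2.98 to 8.50 CPM in 7 of them and at 21.7 CPM in female_WT2. Pi16 (1.57 to 5.70 CPM) and Ogn (0.22 to 4.84 CPM) were also present in all 8, and Twist2 had 0 counts throughout. In male_WT1, with 12.3 CPM of Col1a2, Dcn had 0 counts, Pdgfra 2.98 CPM, Pi16 3.55 and Ogn 1.70. The part of fibroblasts in the collagen levels was not tested.

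Endothelial markers stood out in 2 libraries, while the mural sum was steady. Pecam1 was at 4.07 CPM in female_WT2, 0.346 in male_KO1 and 0.216 in male_KO2, and at 0 to 0.0157 CPM in the other 5. Cdh5, the cadherin of vessel lining, was at 4.53 CPM in female_WT2, 1.26 in male_KO1 and at most 0.0157 elsewhere. Of 12 endothelial markers, 11 reached 1 CPM in female_WT2 and 6 in male_KO1, against 2 in each other library. The summed level was 204 CPM in female_WT2 and 72 to 106 CPM in the others, of which Egfl7, steady at 67.6 to 100 CPM, made up 83.7% to 97.8%. Of 12 mural markers, Rgs5 alone was 96.3% to 98.8% of the sum (348 to 552 CPM), and Kcnj8 and Abcc9 had 0 counts in all libraries. Female_WT2 and male_KO1 were thus the libraries with the most collagen and the only ones with Cdh5 above 0.0157 CPM, and the part of vessel cells in the collagen levels was not tested.

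Male_WT2 and female_KO1 had the lowest summed levels of glial markers (3930 and 3780 CPM) and of collagens (59.8 and 54.9 CPM). Sox10, the glial transcription factor, had 5.80 and 1.57 CPM in male WT, 12.0 and 10.6 in male KO, 6.14 and 5.95 in female WT, and 1.19 and 2.04 in female KO. Male_WT2 and female_KO1 were the lowest pair for 8 of 15 glial markers with a mean of at least 1 CPM, Sox10, Fabp7 and Apoe among them. The same pair was lowest for 4 of 20 collagens of that level (Col1a2, Col4a1, Col4a2 and Col8a1), for 4 of 13 matrix partners (Sparc, Fbln2, Lama4 and Hspg2) and for 3.09% of 16004 genes. At the other end, male_KO1 and female_WT2 were the highest pair for 6 of those 20 collagens (Col1a2, Col4a2, Col8a1, Col16a1, Col18a1 and Col25a1), 4 of 15 glial markers, 4 of 6 endothelial markers, 6 of 13 matrix partners and 5.48% of all 16004 genes. Both pairs were chosen after their values were seen. Summed over 17 glial markers, the level was 5990 and 3930 CPM in male WT, 6040 and 6070 in male KO, 5570 and 6150 in female WT, and 3780 and 6360 in female KO. The most abundant member, Apoe in male_KO1 and Pmp22 elsewhere, made up 45.4% to 69.7% of each sum. The part of glia in the collagen levels was not tested.

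Of the blood lineages, Ptprc, the pan-leukocyte marker, had 0.127 CPM in male_WT1 and 0 counts in the other 7 libraries. The 15 immune markers summed to 13.6 CPM in female_WT2, the lowest library, and Csf1r, steady at 11.7 to 25.4 CPM, was their most abundant: of the sum it made up 52.6% to 88.0%. The 6 red cell markers reached 20.6 CPM in male_WT2 and at most 1.91 CPM elsewhere, and that library had the second lowest summed collagen level. Other sensory neuron markers also differed: 10 myelinated afferent markers summed to 2220 CPM in male_KO1 and 365 to 623 CPM elsewhere. The 8 peptidergic markers summed to 330 and 356 CPM in male WT, 1200 and 1710 in male KO, 783 and 1490 in female WT, and 1150 and 236 in female KO. The 9 nonpeptidergic markers summed to 56.6 to 145 CPM, with 400.0 CPM in male_KO2. The C-LTMR markers summed to 5930 CPM in male_KO1 and 7540 to 9900 CPM in the others.

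**Figure D4:**
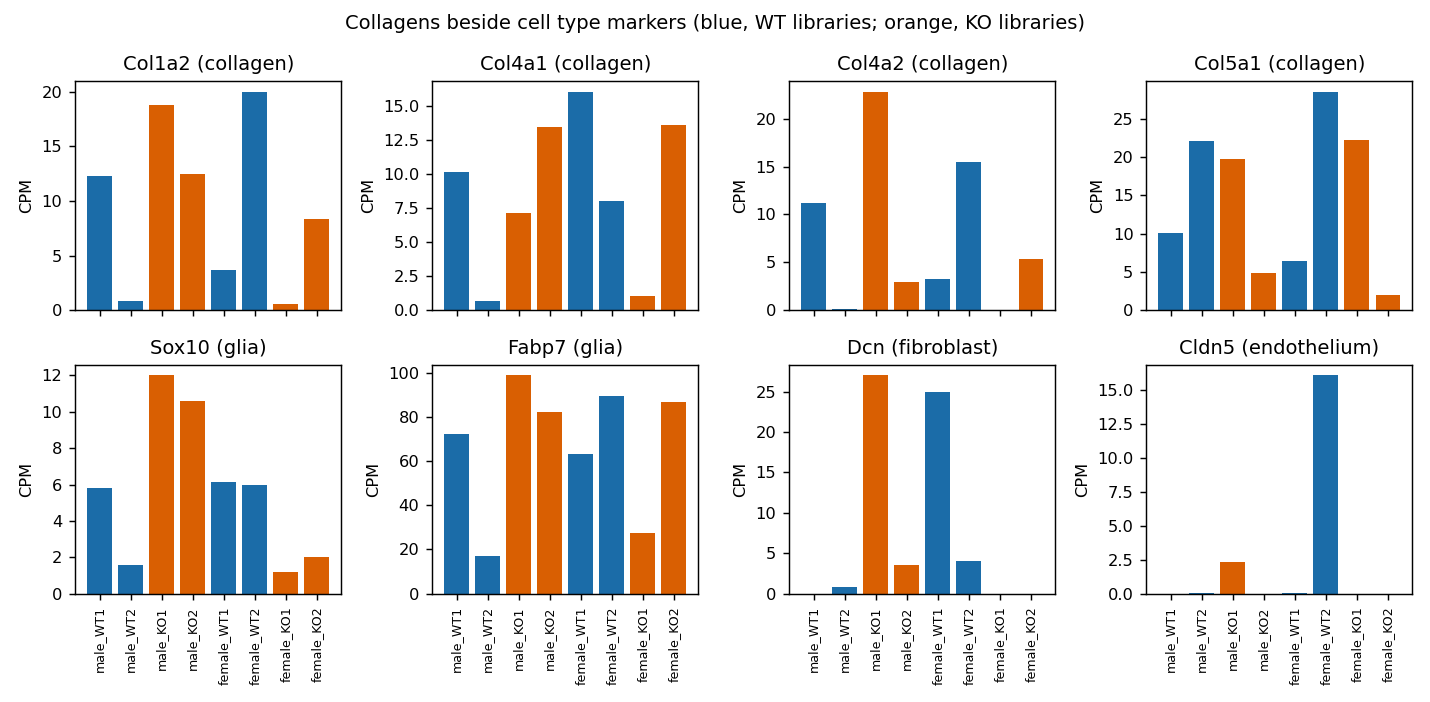
Bars give CPM in the 8 libraries for 4 collagens, 2 glial markers (Sox10, Fabp7), the fibroblast marker Dcn and the endothelial marker Cldn5; blue bars are WT and orange bars KO libraries. Col1a2, Col4a1, Col4a2 and both glial markers are lowest in male_WT2 and female_KO1, Dcn is high in male_KO1 and female_WT1, and Cldn5 in female_WT2 (16.1 CPM).

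KO was compared with WT in each sex to ask whether loss of bhlha9 changed gene expression in these neurons. Of the 44 collagens, 33 passed the filter on low counts and were tested. In males, 0 of 33 passed at an adjusted p below 0.05 in the edgeR quasi-likelihood test, where 0.00454% of all 22013 genes passed. That share was 1 gene, the deleted Bhlha9 itself (edgeR adjusted p = 0.00344). Bhlha9 was also the only gene to pass by edgeR in females and across both sexes. At an unadjusted p below 0.05 there were 4 collagens (Col4a4, Col20a1, Col12a1 and Col8a1), against 3.5% of all genes. DESeq2 passed 2 of 33, Col8a1 and Col20a1, against 0.843% of all genes it tested. In simulated male libraries the edgeR test recovered 1 of 50 genes changed 2-fold, 16 of 50 changed 4-fold, 24 of 50 changed 8-fold and 21 of 50 changed 16-fold. The changed genes were drawn from genes of every level, so these shares do not give the recovery for genes as low as the collagens.

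Fitted values lay mostly above 0 in males without passing. The edgeR log2 fold change was above 0 for 25 of 33 and below 0 for 8, with a median of 1.6 against 0.02 over all genes. Without male_KO1 the counts were 18 and 15 and the median 0.93. Both KO libraries exceeded both WT libraries for 11 of 33 collagens, against 14.5% of all genes, and lay below both for 3 of 33, also against 14.5%. The 11 were Col1a2, Col3a1, Col6a4, Col6a5, Col8a1, Col11a1, Col12a1, Col15a1, Col16a1, Col18a1 and Col28a1, and the 3 were Col2a1, Col4a4 and Col20a1. Summed fibroblast, myelinated afferent and peptidergic marker levels were higher in both male KO libraries than in both male WT libraries as well. The fibroblast sum was 44.8 and 16 against 9.58 and 12.9 CPM, and Dcn alone was 60.2% of it in male_KO1. Of 9 tested fibroblast markers, 6 had a fitted value above 0 and 3 below. Among the latter, Pi16 was lower in both male KO libraries (1.66 and 1.86 against 3.55 and 4.49 CPM). The glial sum, 6040 and 6070 against 5990 and 3930 CPM, was hardly above male_WT1. Of 16 tested glial markers, 13 had a fitted value above 0 and 3 below, among the latter Pmp22 (-0.32), the most abundant by mean. The part of these marker levels in the collagen values was not tested.

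Col8a1 (ENSMUSG00000068196, chromosome 16, 57624258 to 57754737, minus strand) had 3 and 2 counts in the male WT libraries, 5 in all, against 335 in male KO. The ratio per library size was 69.2 (95% interval 29.4 to 215 for counting error alone). The edgeR log2 fold change was 6.07 (SE 1.91, adjusted p = 1.0), and DESeq2 gave 6.14 (SE 1.66, adjusted p = 0.0335). In the authors' deposited table for males it stood at a log2 fold change of 1.23 (SE 0.35, adjusted p = 0.0455). The submitters' notes name an older DESeq2 version than the one used here. Whether the deposited log2 fold changes and errors, here and below, are on the same scale as the fits made here was not tested. Their sizes therefore cannot be set against the edgeR and DESeq2 values or the count ratios.

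Col12a1 (ENSMUSG00000032332, chromosome 9, 79598991 to 79718831, minus strand) had 8 counts in male WT against 512 in male KO, a ratio of 66.1 (95% interval 33.3 to 154). The edgeR log2 fold change was 6.05 (SE 1.53, adjusted p = 1.0). The authors' deposited table for males gave 1.32 (SE 0.35, adjusted p = 0.0259). Both KO libraries were above both WT libraries, and male_KO1 had 3.88 times the level of male_KO2.

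Col16a1 (ENSMUSG00000040690, chromosome 4, 130047840 to 130099283, plus strand) averaged 12.5 ± 5.95 CPM in male KO and 2.48 ± 0.417 in male WT (mean ± SD, n = 2). The edgeR log2 fold change was 2.33 (SE 1.39, adjusted p = 1.0). The authors' deposited table for males gave 1.38 (SE 0.37, adjusted p = 0.0232). These were the only 3 collagens among the 150 genes of that table, of which 140 were higher in KO, and Pcolce, an enhancer of collagen processing, was listed too (1.29, SE 0.36, adjusted p = 0.0405). The same authors' deposited table lists markers of other cells as higher in male KO, among them Calca (peptidergic, log2 fold change 2.71), Mrgprd (nonpeptidergic, 2.69), S100b (glial, 2.02) and Nefh (myelinated afferent, 1.92).

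The 250 bases before the annotated start of Col8a1 and Col16a1 are shown because they are collagens of that table and the deleted gene belongs to a family known to bind the E-box, CANNTG. Sequences are from RefSeq on GRCm38.p6, read 5′ to 3′ on the strand of the gene, with CANNTG in capitals. They span chr16:57754738-57754987 (minus strand) and chr4:130047590-130047839 (plus strand).
Col8a1: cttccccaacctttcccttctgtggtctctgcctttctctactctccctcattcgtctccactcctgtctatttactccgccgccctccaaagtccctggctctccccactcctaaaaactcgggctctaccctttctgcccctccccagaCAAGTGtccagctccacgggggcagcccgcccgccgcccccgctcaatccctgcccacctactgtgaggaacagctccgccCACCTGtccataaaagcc
Col16a1: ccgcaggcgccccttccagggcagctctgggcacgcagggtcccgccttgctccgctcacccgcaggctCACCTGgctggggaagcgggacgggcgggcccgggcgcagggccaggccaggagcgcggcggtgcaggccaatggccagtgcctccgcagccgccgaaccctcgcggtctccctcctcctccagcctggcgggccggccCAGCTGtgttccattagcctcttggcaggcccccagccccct
Each holds 2 matches. CANNTG, which reads alike on both strands, occurred in 19 of 38 collagen windows of this length (35 of 44 genes) and in 66.2% of all 32817 windows. GGGCGG, on either strand, occurred in 57.9% of collagen windows and 32.7% of all, CCAAT in 34.2% and 33.8%, and TATAAA in 13.2% and 12.4%. A match describes letters in the window and is not a binding site.

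The other collagens with a group mean of at least 5 CPM had male fold changes of less than 2 standard errors. The edgeR standard error, here and elsewhere, was derived from the F statistic of the test. The edgeR log2 fold change was 1.26 for Col1a2 (SE 1.52), 3.27 for Col3a1 (SE 2.56), 0.93 for Col4a1 (SE 1.40) and 1.18 for Col4a2 (SE 2.35). It was -0.39 for Col5a1 (SE 1.22), 0.78 for Col5a3 (SE 0.80), -0.43 for Col6a2 (SE 1.23), 2.33 for Col23a1 (SE 2.07) and 1.6 for Col28a1 (SE 1.23). The adjusted p was 1.0 for all 9. Col20a1, a FACIT member, went the other way: it had 0.682 and 2.25 CPM in male WT and 0.0173 and 0.0462 in male KO. DESeq2 gave it a log2 fold change of -5.50 (SE 1.55, adjusted p = 0.0482), where edgeR gave -5.43 (SE 1.54, adjusted p = 1.0).

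In females, 0 of 33 collagens passed by edgeR, where 0.00454% of all genes passed. At an unadjusted p below 0.05 there were 3 (Col11a1, Col7a1 and Col8a1), against 3.81% of all genes, and DESeq2 passed 2 (Col7a1 and Col1a1), against 0.83%. Fitted values lay mostly below 0: the edgeR log2 fold change was below 0 for 25 and above 0 for 6 of 33, with a median of -1.41 against 0.0 over all genes. Without female_WT2 the counts were 15 below and 11 above, and the median was 0.0. Without female_KO1 or female_KO2 they were 24 below and 7 above, with medians of -2.6 and -4.04. Both KO libraries lay below both WT libraries for 8 of 33 collagens (all genes 15.1%) and above both for 2, Col20a1 and Col27a1 (all genes 14.2%). The 8 were Col5a3, Col7a1, Col11a1, Col11a2, Col15a1, Col25a1, Col26a1 and Col28a1. The fibroblast sum was lower in both female KO libraries too (12.0 and 8.22 against 39.4 and 30.8 CPM), as was Sox10 (1.19 and 2.04 against 6.14 and 5.95 CPM), and their part in these values was not tested. Dcn was 63.5% of the fibroblast sum in female_WT1 and Pdgfra 70.4% in female_WT2. Of 9 tested fibroblast markers, 5 had a female fitted value below 0 and 3 above. The authors' deposited table for females, with 13 genes, held 0 collagens.

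Col7a1 (ENSMUSG00000025650, chromosome 9, 108953586 to 108984875, plus strand) had 434 counts in female WT and 0 in female KO, which is at least 73.8-fold lower with the floor of 3 counts per library. DESeq2 gave a log2 fold change of -10.23 (SE 2.12, adjusted p = 0.000624) and edgeR -10.83 (SE 2.49, adjusted p = 1.0). The DESeq2 call on Col1a1 in females (log2 fold change -17.31, adjusted p = 3.04e-05) rested on 4 counts in female_WT2 and 0 in the other 3 female libraries.

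No other female comparison of the collagens with a group mean of at least 5 CPM, or in the authors' deposited table, passed. The edgeR log2 fold change was -1.41 for Col1a2 (SE 1.53), 2.45 for Col3a1 (SE 2.56), -0.71 for Col4a1 (SE 1.40), -1.81 for Col4a2 (SE 2.39) and -0.53 for Col5a1 (SE 1.22). It was -1.90 for Col5a3 (SE 0.82), 0.03 for Col6a2 (SE 1.23), -4.73 for Col8a1 (SE 1.78), -1.02 for Col16a1 (SE 1.34), -0.07 for Col23a1 (SE 1.97) and -1.38 for Col28a1 (SE 1.22). The adjusted p was 1.0 for all 11. Without female_WT2 the value of Col8a1 was -0.65, and that library alone was above 1 CPM in females.

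**Figure D5:**
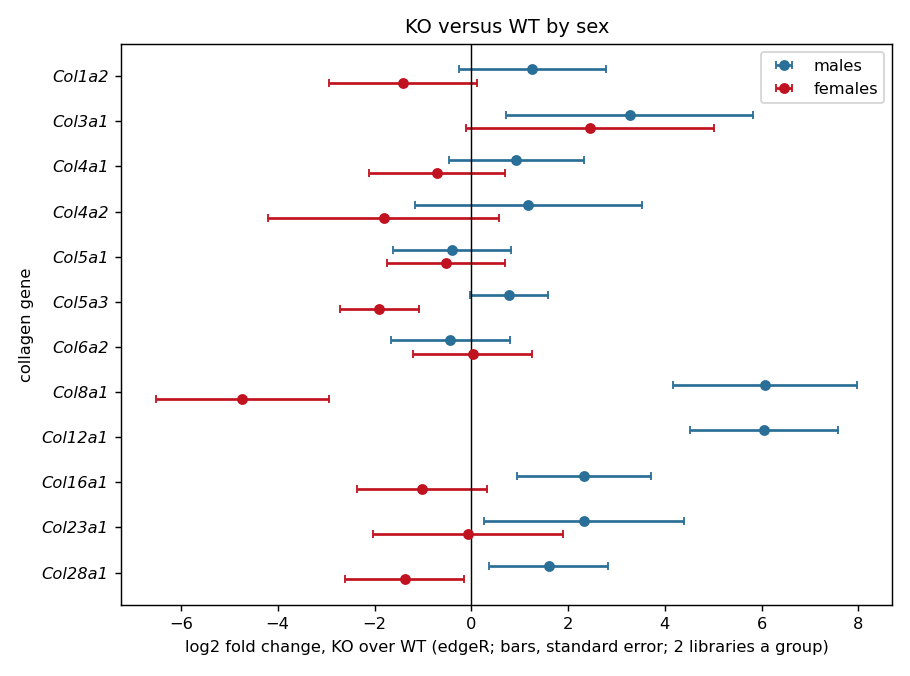
Points give the edgeR log2 fold change of KO over WT for 12 collagens, blue in males and red in females. Bars are 1 standard error, derived from the F statistic of the test (2 libraries a group). Col12a1 has no female point, since it had 0 counts in all female libraries. Bars of Col1a2, Col4a1, Col4a2, Col5a1 and Col6a2 cross 0 in both sexes, and Col8a1 lies at 6.07 in males and -4.73 in females.

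Across both sexes, with sex in the model, 0 of 33 collagens passed by edgeR (0.00454% of all genes) and 0 by DESeq2 (0.251%). At an unadjusted p below 0.05 there were 2, Col4a4 and Col12a1, against 3.56%. The median log2 fold change was -0.34, with 13 above 0 and 20 below. The difference between the sexes in the KO effect (male minus female) passed for 0 of 33 collagens by edgeR (0.0% of all genes). At an unadjusted p below 0.05 there were 4 (Col20a1, Col11a1, Col7a1 and Col8a1), against 4.73%, and DESeq2 passed 4 (Col20a1, Col7a1, Col1a1 and Col8a1), against 1.12%. For Col8a1 the difference was 10.79 by edgeR (SE 2.61, adjusted p = 0.98) and 10.87 by DESeq2 (SE 2.30, adjusted p = 0.000744). The median difference over the 33 was 3.07, against 0.02 over all genes. It takes in male_KO1 and female_WT2, without which the medians within each sex were nearer 0 as given above.

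The machinery that makes and handles collagen was measured in the same fit. It was given as 5 lists of 78 genes, of which 63 were tested. By edgeR 0 passed in any comparison, where at most 0.00454% of all genes did. At an unadjusted p below 0.05 there were 4 in males (all genes 3.5%), 4 in females (3.81%), 0 across both sexes (3.56%) and 10 for the difference between the sexes (4.73%). DESeq2 passed Pcolce and Mmp2 in males (all genes 0.843%), Mmp2 and Itga1 in females (0.83%), none across both sexes (0.251%), and Pcolce, Mmp2 and Itga1 for the difference (1.12%). Pcolce had 0.159 and 0.22 CPM in male WT and 4.66 and 2.36 in male KO. Mmp2, a gelatinase, had 0.606 CPM in male_KO1, 5.95 in female_WT2 and 0 counts in the other 6 libraries, so its calls rested on single libraries.

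Of 20 genes of folding and secretion, 11 were steady, against 50.4% of all genes with at least 1 CPM in a library. The share was 92.0% for genes with a mean of at least 20 CPM. List members such as P3h2 (mean 0.172 CPM), Plod2 (1.55) and Fkbp10 (2.7) lay below that level. Among the 11 were Ppib (133 to 207 CPM), a folding catalyst, P4hb (102 to 152 CPM), a subunit of prolyl hydroxylase, and Colgalt1 (77.7 to 143 CPM), which adds sugars to collagen. Most of these enzymes also serve other secreted proteins. Serpinh1, the chaperone specific to collagen, was patchy, with 12.2 CPM in male_KO1, 12.0 in female_WT2, 2.33 to 7.81 in 5 libraries and 0.0391 in female_KO1. The list's median log2 fold change was -0.17 in males (5 above 0, 14 below) and 0.21 in females (12 above, 7 below).

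Of 19 matrix partners of collagen with at least 1 CPM in a library, 0 were steady, against 50.4% of all such genes. That share was not matched for level, and it was 17.3% among genes with a mean of 1 to 5 CPM. Fibroblast (0 of 7), nonpeptidergic (0 of 6) and red cell markers (0 of 4) had no steady member either. Sparc, a collagen-binding glycoprotein, had 182 and 18.0 CPM in male WT, 251 and 140 in male KO, 98.0 and 223 in female WT, and 74 and 123 in female KO. The list's median was 1.05 in males (14 above 0, 5 below) and -1.17 in females (4 above, 15 below). Cross-linking and maturation genes had medians of 0.91 in males (8 above, 1 below) and -0.62 in females (3 above, 6 below), with Loxl3 (15.4 to 29.7 CPM) and Pcolce2 (12.2 to 28.1 CPM) steady. Collagen receptors had medians of 0.91 (7 above, 2 below) and -0.41 (3 above, 6 below), with Itgb1 (86.8 to 159 CPM), Cd44 (83.7 to 151 CPM) and Ddr1 (35.5 to 64.7 CPM) steady. Collagenases and their inhibitors had medians of 1.38 (6 above, 1 below) and -0.12 (3 above, 4 below), and Timp2 (374 to 636 CPM) was steady. Over all genes the medians were 0.02 in males and 0.0 in females.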

How the data were processed

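RNA of 8 samples of sorted neurons was reverse transcribed and amplified with SMART-Seq v4 (13 cycles of PCR), then made into Nextera XT libraries (12 cycles), per the labels' protocols. The deposited file holds integer read counts per gene, which featureCounts 1.6.1 made without regard to strand, per the file headers, from Ensembl exons (GRCm38, release 97). The submitters' processing notes name DESeq2 1.14.1, Subread 1.6.4 and bcl2fastq 2.17.1.14. The aligner, in the sources used here, is not given. The authors' deposited tables hold, per the file headers, a mean normalized count (a signal), log2 fold changes and errors, a test statistic (a score), and each p-value before and after adjustment. They list only genes past 5%.

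Of 55573 genes, 55394 had a symbol in the reference annotation. CPM used TMM factors (0.9793 to 1.022). Genes kept by filterByExpr (22013) went into the robust, two-sided quasi-likelihood test in edgeR 4.0.16 (R 4.3.3) over 4 groups, with 4 residual degrees of freedom, a biological coefficient of variation of 76.6% and Benjamini-Hochberg adjustment at 0.05. The SE given with an edgeR value is the absolute log2 fold change over the square root of the F statistic, not a separately fitted error. DESeq2 1.42.0 was an alternative and gave its own errors. With 2 libraries a group an exact permutation test cannot go below 0.333, so none was used. The test was run on simulated data (21029 genes, 2 false calls). Other alternatives were size factors, filters, leaving out libraries, a replicate term and class limits.

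The members and lists were chosen with earlier results of these data known. Collagens at 1 CPM or more were named with their levels. Fold changes were given for those with a group mean of at least 5 CPM or in the authors' table; Col7a1, Col20a1 and Col1a1 were added for their DESeq2 calls. Of other lists, up to 4 abundant members and defining markers were named (1 is not reported here), and Calca, Mrgprd, S100b, Nefh, Pi16, Ogn, Pcolce, Mmp2, Itga1, Serpinh1, Loxl3, Twist2, Kcnj8 and Abcc9 after their values were seen.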

Additional observations from a re-analysis of the deposited data

Results flagged for a closer look

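Of the 33 tested collagens, 4 had both KO libraries on one side of both WT libraries in males and on the opposite side in females, a pattern that 4.77% of all 22013 tested genes showed. Col11a1 was higher in male KO (1.89 and 1.33 CPM against 0.809 and 0.0314) and lower in female KO (0 and 0.014 against 0.0353 and 3.06). In counts the female values were 0 and 1 in KO against 2 and 193 in WT, so 3 of the 4 were below 3 counts and the female side rests on female_WT2 alone. On the log2 scale its KO effect differed between the sexes by 9.25 (SE 3.49, adjusted p = 0.98 by edgeR). Col28a1 was also higher in male KO and lower in female KO, with a difference of 2.99 (SE 1.73, edgeR adjusted p = 1.0). Col15a1, at most 0.396 CPM in any library, had a difference of 3.57 in the same direction. Col20a1 ran the other way, lower in male KO and higher in female KO (2.60 and 0.632 CPM against 0.318 and 0.554), with a difference of -7.32 (SE 2.0, edgeR adjusted p = 0.98 and DESeq2 adjusted p = 0.0392). None of the 4 differences passed by edgeR.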

How the results depend on the processing

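The biological coefficient of variation of 76.6% limits every comparison, and 1 of 50 simulated 2-fold changes, in genes of every level, was recovered. The count of collagens past the threshold was 0 under every edgeR alternative in all 4 comparisons. With the DESeq2 Wald test it was 2 in males, 2 in females and 4 for the difference between the sexes, and for the pathway lists 2, 2 and 3; Col8a1 in males passed there at 6.14. With a level of 5 CPM in place of 1, single-library collagens numbered 1, patchy 15 and low 27; steady collagens stayed at 0 under all class limits tried.

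Leaving out 1 library gave 1 to 3 silent collagens. Counts of collagens without overlap then ran from 15 to 20 (higher) and 3 to 8 (lower) in males, and from 3 to 5 (higher) and 11 to 22 (lower) in females, with fewer libraries to overlap. The same settings gave 25.9% to 38.1% (higher) and 27.4% to 35.0% (lower) of all genes in males, and 28.2% to 34.0% and 29.7% to 32.7% in females. These counts, and the direction counts without 1 library, were added after the data were seen. The log2 fold change changed sign in 16 of 184 such values: the ranges were -4.34 to 0.28 for Col1a2, -5.27 to 3.45 for Col3a1, -3.56 to 0.18 for Col4a1, -3.11 to 0.91 for Col5a1, -0.35 to 0.53 for Col6a2, -2.77 to 2.55 for Col16a1 and -1.69 to 0.67 for Col23a1 in females. In males they were -0.01 to 3.88 for Col4a1, -0.94 to 6.65 for Col4a2, -1.73 to 0.28 for Col5a1, -0.34 to 1.63 for Col5a3 and -3.88 to 0.89 for Col6a2. Others kept their sign over wide ranges: 2.11 to 11.71 for Col3a1, 0.04 to 11.38 for Col23a1, 0.32 to 4.22 for Col1a2 and 0.8 to 2.11 for Col28a1 in males, and -12.14 to -0.29 for Col4a2, -6.2 to -0.65 for Col8a1, -4.91 to -0.45 for Col28a1 and -2.77 to -1.37 for Col5a3 in females.

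Of 137 values under other settings, 136 kept their sign. The exception was the replicate block, a term for the replicate number, under which Col3a1 in females was -0.03 and 0 collagens passed. Libraries of the same number did not deviate together (correlations from -0.102 to 0.109 over pairs of groups), so the numbers were not taken as pairs. Causes of these changes were not tested.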

Other observations

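Col9a2, a FACIT chain known from cartilage, separated the sexes, which no comparison above addressed and which was chosen after its values were seen. It had 3.16, 2.28, 3.31 and 2.32 CPM in the 4 female libraries and 0.793, 0.0314, 0.191 and 0 CPM in the 4 male libraries. It was the only one of 33 tested collagens with all female libraries above all male libraries, against 1.47% of all genes. The reverse held for Col12a1 alone, at 0 counts in all 4 female libraries, against 1.53% of all genes. Neither was tested between the sexes.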
